A study of Mus musculus with 10 samples.

Results

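The genes described here in fetal liver are the 4 genes of the apolipoprotein cluster on mouse chromosome 9 (Apoc3, Apoa4, Apoa5 and Apoa1) and Creb3l3, which encodes a transcription factor of hepatocytes. They are 5 of 55401 genes in the count table, and all 5 were among the 14098 genes with enough counts to be tested. The genes were chosen by name, with their difference between genotypes in these same libraries already known, so that difference is given as a description. No p-value is printed for it, and counts of the genes that pass a threshold describe where they stand in the table and test nothing.

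Polyadenylated RNA was sequenced from the liver of 10 female fetuses at E18.5, late in gestation. In 5 Mir483Pat-KO fetuses the microRNA gene Mir483 was deleted on the allele inherited from the father, and 5 wild-type (WT) littermates were the controls. The deletion is constitutive, was made in C57BL/6N embryonic stem cells of 2 clones and was studied on a C57BL/6J background, so it is present in every cell type of the fetus and not only in hepatocytes. Mir483 had between 10 and 22 counts in each WT library and 0 counts in all 5 Mir483Pat-KO libraries, which had 10831350 or more counts in total.

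Apolipoproteins are the protein components of the particles that carry lipid in blood. Apoc3 encodes apolipoprotein C-III, which slows the clearance of triglyceride-rich particles, whereas Apoa5 encodes apolipoprotein A-V, which promotes their breakdown by lipoprotein lipase. Apoa4 encodes apolipoprotein A-IV, a product of intestine and liver, and Apoa1 encodes apolipoprotein A-I, the main protein of high-density lipoprotein. Creb3l3 encodes CREB-H, a factor held in the membrane of the endoplasmic reticulum until proteases of the Golgi release its active part, and genes of this cluster are among its known targets.

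The cluster spans 43.34 kb (GRCm38, chr9:46228580-46271919). Apoa1 (chr9:46228580-46230466, plus strand) is followed after 2466 bp by Apoc3 (chr9:46232933-46235636), the only gene of the cluster on the minus strand. Apoa4 (chr9:46240696-46243459, plus strand) starts 5059 bp further on, and Apoa5 (chr9:46268633-46271919, plus strand) lies 25173 bp beyond Apoa4. Creb3l3 is on chromosome 10 (chr10:81084324-81098874, minus strand). Annotated genes on the opposite strand cover 69.8% of the exonic bases of Apoa4 (Gm47528 and Gm10680) and 20.8% of those of Apoa5 (Gm47544). These opposite genes had at most 4 counts in any library, and the strand setting of the counting is not stated in the sources used here.

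The deleted gene yields a pair of mature microRNAs. They are shown because the seed, bases 2 to 8 and here in capitals, is the stretch that pairs with target mRNAs (RefSeq, GRCm38.p6, 5′ to 3′).
mmu-miR-483-3p, chr7:142654932-142654952, minus strand: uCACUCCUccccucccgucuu
mmu-miR-483-5p, chr7:142654968-142654989, minus strand: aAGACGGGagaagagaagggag

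A 7-base match to the miR-483-3p seed (AGGAGTG) stood in the 3′ UTR of 1 of the 5 genes, Apoa5, at base 207 of 1185 bases. Among all tested genes with an annotated 3′ UTR, 12.6% of 12869 held such a match. The stretch around it in Apoa5, with the match in capitals, is as follows.
Apoa5 3′ UTR site: gaggtgacAGGAGTGggagatgg

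The 3′ UTRs of Apoc3 (290 bases), Apoa4 (169 bases), Apoa1 (64 bases) and Creb3l3 (431 bases) held no miR-483-3p match. None of the 5 held a match to the miR-483-5p seed (CCCGTCT), which 3.27% of those genes held. Apoa5, the gene with the match, was lower on average in Mir483Pat-KO, although the genotypes overlapped. Any effect of the match was not tested.

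Apoc3 counts were lower in every Mir483Pat-KO library than in every WT library. In CPM, the count relative to library size with TMM factors, Apoc3 was at 51.6, 50.4, 63.3, 55.5 and 59.0 in WT replicates 1 to 5. In Mir483Pat-KO replicates 1 to 5 it was at 27.2, 20.2, 15.7, 17.2 and 16.8 CPM. The groups did not overlap, and the highest Mir483Pat-KO library was replicate 1. Means of 55.9 ± 5.33 and 19.4 ± 4.68 CPM (SD, n = 5 in each genotype) corresponded to a log2 fold change of −1.53 (SE 0.125), or a mean level 34.7% of that in WT. It was the 13th lowest log2 fold change of all 14098 genes tested.

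Apoa4 was also lower, at a far smaller count. It was at 8.35, 4.36, 5.94, 7.78 and 7.19 CPM in the WT libraries, and the Mir483Pat-KO libraries had 3.98, 2.94, 2.30, 2.44 and 1.91 CPM. The lowest WT library (replicate 2) and the highest Mir483Pat-KO library (replicate 1) lay close to each other, but the groups did not overlap. The log2 fold change was −1.31 (SE 0.211), from means of 6.72 ± 1.6 and 2.71 ± 0.799 CPM (SD, n = 5). Counts of Apoa4 ran from 27 to 102 per library, so its values carry more counting error than those of the other genes.

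Apoa5 was the most variable of the genes. Its WT values were 26.5, 33.8, 48.6, 24.9 and 24.2 CPM, and its Mir483Pat-KO values were 15.3, 5.32, 29.4, 11.5 and 18.3 CPM. The groups overlapped, since Mir483Pat-KO replicate 3 was above 3 of the WT libraries while the other 4 were below all of them. The means were 31.6 ± 10.3 and 16.0 ± 8.94 CPM, and the log2 fold change of −0.98 had an SE of 0.298. The standard deviation was 32.5% of the mean in WT and 56% in Mir483Pat-KO, against 9.53% and 24.1% for Apoc3.

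Apoa1, by far the most abundant of the genes, was lower by a smaller amount. It was at 7913, 8299, 7830, 7267 and 8894 CPM in the WT libraries, against 6409, 6839, 6311, 6706 and 6456 CPM in those of Mir483Pat-KO. No Mir483Pat-KO library reached the lowest WT library. Means of 8041 ± 603 and 6544 ± 220 CPM (SD, n = 5) gave a log2 fold change of −0.30 (SE 0.0713), a level 81.4% of that in WT. Because Apoa1 held 98.5% to 99.6% of the counts of the cluster in every library, the share of all counts that fell in the cluster followed Apoa1, at 0.742% to 0.880% in WT and 0.636% to 0.694% in Mir483Pat-KO.

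Creb3l3, the gene of the transcription factor, differed by about as much as Apoa1. It was at 125, 127, 132, 128 and 139 CPM in the WT libraries, against 109, 88.7, 118, 105 and 106 CPM in those of Mir483Pat-KO. The groups did not overlap, and Mir483Pat-KO replicate 2, where Apoa5 was lowest, was also the lowest for Creb3l3. The means were 130.2 ± 5.72 and 105 ± 10.5 CPM (SD, n = 5), with a log2 fold change of −0.31 (SE 0.0739).

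**Figure D1:**
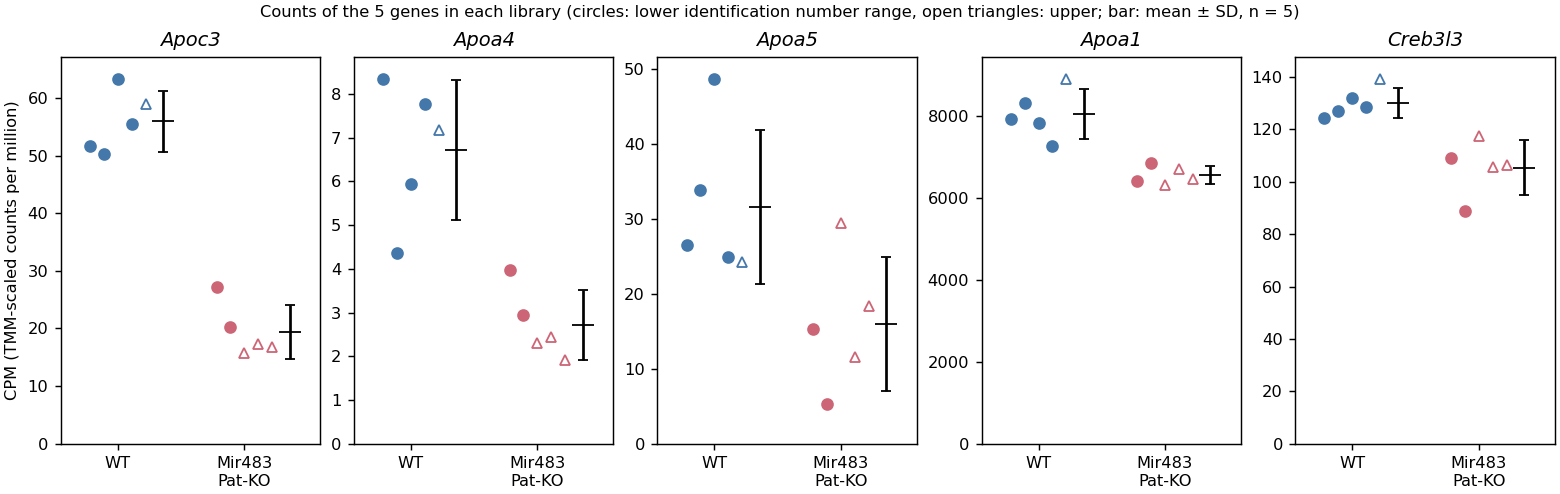
Each point is 1 library, with CPM on the vertical axis from 0 and 1 panel per gene, and the bars give the mean ± SD of 5 libraries. Filled circles and open triangles mark the lower and upper range of the animal identification numbers, and the groups overlap for Apoa5 alone of the 5 genes.

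Read against the whole table, 2 of the 5 genes (Apoc3 and Apoa4) were called lower in Mir483Pat-KO at an adjusted p under 0.05 (edgeR quasi-likelihood test, Benjamini-Hochberg over 14098 genes) and a fold change over 1.5, a rule that 0.872% of all genes met. At the adjusted p alone the count was 4 of 5, all but Apoa5, where 2.76% of all genes passed as lower and 2.43% as higher. Non-overlapping groups with Mir483Pat-KO lower were seen for 4 of the 5 and for 3.26% of all genes. The genes were selected on this contrast, so nothing is read from these counts.

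The differences were of unequal size among the 4 genes of the cluster. Relative to Apoa1 in the same library, Apoc3 had 6.07 to 8.08 counts per 1000 Apoa1 counts in WT and 2.49 to 4.25 in Mir483Pat-KO. Relative to Creb3l3 it had 429 ± 31.2 counts per 1000 in the WT libraries and 187 ± 49.8 in the others (SD, n = 5). Creb3l3 and Apoa1, in contrast, kept overlapping ratios, with 15.3 to 17.7 Creb3l3 counts per 1000 Apoa1 counts in WT and 13.0 to 18.6 in Mir483Pat-KO. Ratios to Apoa1 overlapped for Apoa4 too, at 0.525 to 1.07 per 1000 in WT and 0.296 to 0.621 in Mir483Pat-KO. For Apoa5 they overlapped at 2.73 to 6.21 (WT) and 0.777 to 4.66 (Mir483Pat-KO). The ratio of Apoa4 to Apoc3, the neighbours with the lowest fold changes, also overlapped, with means of 121 ± 31.5 per 1000 (WT) and 139 ± 14.0 per 1000 (Mir483Pat-KO).

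Per kilobase of exon the order of levels in WT was Apoa1, Apoc3, Creb3l3, Apoa5 and Apoa4, with means of 6505, 55.2, 43.2, 12.5 and 3.70 CPM per kb. The WT ranges of neighbours in this order did not overlap, the closest being Apoc3 (49.7 to 62.4) and Creb3l3 (41.3 to 46.2). On this scale only 6 of the tested genes had a higher mean WT level than Apoa1, whereas 7325 were higher than Apoa4. If strand was ignored in the counting, reads from the exons that overlap opposite genes may have been left uncounted, and the levels of Apoa4 and Apoa5 per length would then be too low. In Mir483Pat-KO the levels of Apoc3 (15.5 to 26.9) lay below those of Creb3l3 (29.4 to 39.0) in all libraries. Apoa5 (2.11 to 11.7) and Apoa4 (1.05 to 2.19) came close enough in Mir483Pat-KO for their ranges to overlap.

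**Figure D2:**
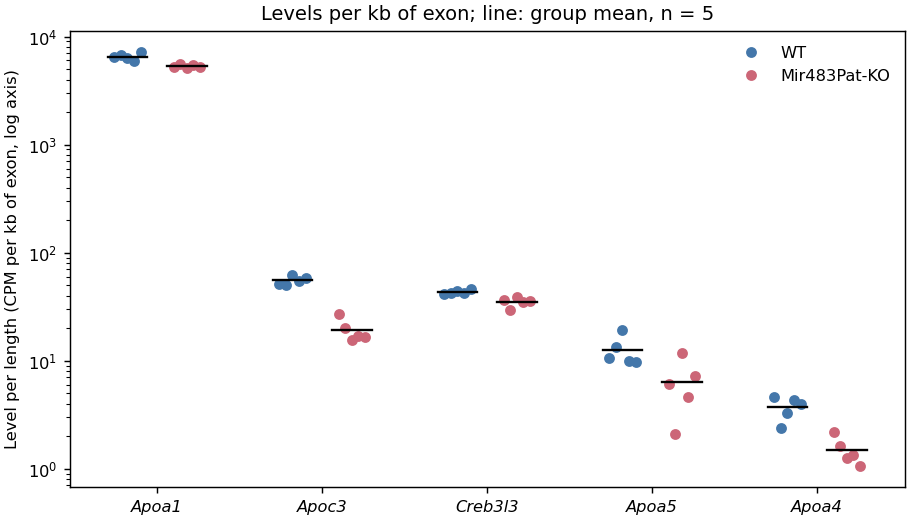
Level in CPM per kb of exon on a log axis, for the 5 genes in order of their WT mean, with 1 point per library and a line at each group mean (n = 5). Apoc3 lies above Creb3l3 in WT and below it in Mir483Pat-KO.

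Within each genotype the genes did not vary as 1 unit. After the group means of log2 CPM were removed, Apoc3 and Apoa4 had a Pearson r of 0.66 over the 10 libraries, with 0.93 within Mir483Pat-KO and 0.15 within WT. Apoa5 and Creb3l3 had an r of 0.80, with 0.97 within Mir483Pat-KO and −0.06 within WT. Single libraries weighed on both values. Without Mir483Pat-KO replicate 1 the r of Apoc3 and Apoa4 was 0.35 over 9 libraries and 0.75 within Mir483Pat-KO. Both genes stood above the Mir483Pat-KO mean in replicates 1 and 2, of the lower identification number range described further on. They stood below it in replicates 3 to 5, of the upper range. Without Mir483Pat-KO replicates 2 and 3 the r of Apoa5 and Creb3l3 was −0.00077 over 8 libraries, and it was 0.44 without replicate 2 alone and 0.69 without replicate 3 alone. Within Mir483Pat-KO the r of this pair was 0.39 without both, 0.89 without replicate 2 alone and 0.95 without replicate 3 alone. Apoc3 and Creb3l3 had an r of −0.08, from 0.70 within WT and −0.23 within Mir483Pat-KO. Apoc3 and Apoa1 had an r of 0.03, with values of 0.03 (WT) and 0.05 (Mir483Pat-KO), and Apoa5 and Apoa4 had an r of −0.39 (WT −0.58, Mir483Pat-KO −0.34). Apoa1 had an r of −0.39 with Apoa5 (WT −0.11, Mir483Pat-KO −0.94) and of −0.13 with Creb3l3 (WT 0.60, Mir483Pat-KO −0.89). All points share the library and its depth, and with 5 libraries per genotype these values are a description only.

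**Figure D3:**
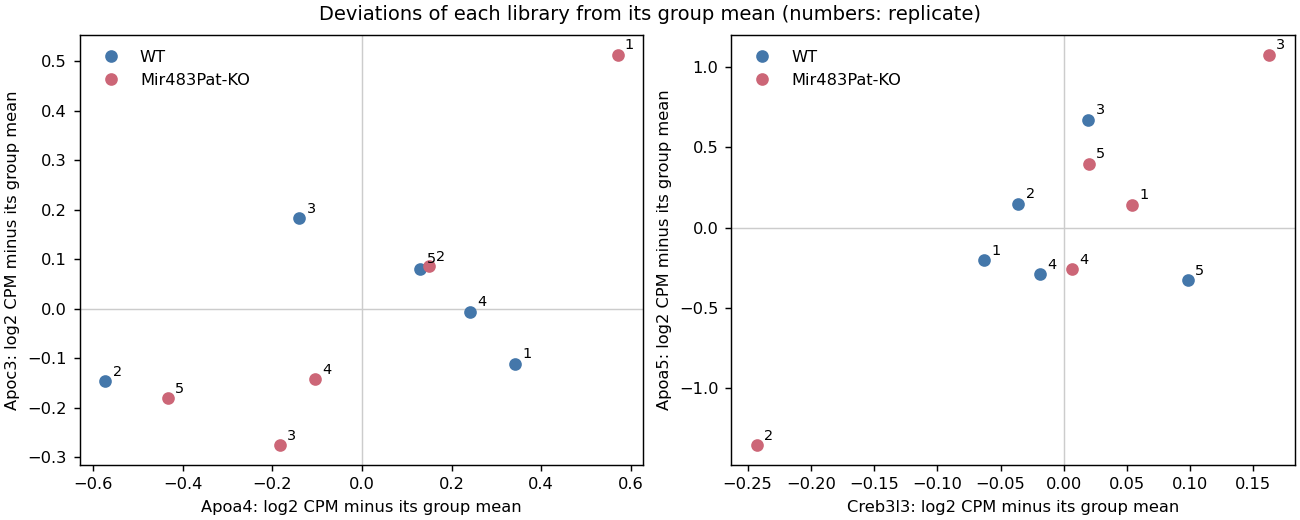
Deviation of each library from its group mean in log2 CPM, for Apoc3 against Apoa4 and for Apoa5 against Creb3l3, with replicate numbers beside the points. Mir483Pat-KO replicate 1 lies far from the rest in the first panel, and Mir483Pat-KO replicates 2 and 3 lie at opposite ends of the second.

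The genes whose deviations were most like those of Apoc3, among 12549 genes compared over the 10 libraries, were Prelp (r = 0.97), Paqr9 (0.94) and Serpina5 (0.94). Apoa4 ranked 381st on this list. For Creb3l3 they were Ahi1 (0.94), H2afv (0.92) and Bcas3 (0.92), and Apoa5 ranked 108th. The genes most alike were picked as the highest of 12549 values, each from 10 libraries, so they are a description only.

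The promoters of the genes are shown because 4 neighbours that share a cluster were lower by different amounts. Each runs from 250 bases before to 50 bases after the annotated start (RefSeq, GRCm38.p6). The RefSeq starts of Apoa1 (chr9:46228630) and Apoa4 (chr9:46240844) lie inside the GENCODE spans of these genes given above. Motif positions are counted from the RefSeq starts. Capitals mark motifs searched on both strands, which were TGACG, TGACGTCA and TGACGTGG (elements of the CREB and ATF kind), CACGTG (an E-box), CAAAGTCCA, CAAAGGTCA, CAAAGTTCA and AGGTCA (elements of nuclear receptors such as HNF4) and the TATA box (TATAAA). Both longer motifs of the first kind contain the shortest one, and AGGTCA lies within the second of the HNF4 kind. Of the 5 genes, Apoc3 had no entry in the promoter table.
Apoa1, chr9:46228380-46228679, plus strand: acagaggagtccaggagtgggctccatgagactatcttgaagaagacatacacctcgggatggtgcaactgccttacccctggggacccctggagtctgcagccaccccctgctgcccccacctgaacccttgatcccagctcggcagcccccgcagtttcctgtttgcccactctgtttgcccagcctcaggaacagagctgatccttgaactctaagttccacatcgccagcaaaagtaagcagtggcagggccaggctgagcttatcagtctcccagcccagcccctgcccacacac
Apoa4, chr9:46240594-46240893, plus strand: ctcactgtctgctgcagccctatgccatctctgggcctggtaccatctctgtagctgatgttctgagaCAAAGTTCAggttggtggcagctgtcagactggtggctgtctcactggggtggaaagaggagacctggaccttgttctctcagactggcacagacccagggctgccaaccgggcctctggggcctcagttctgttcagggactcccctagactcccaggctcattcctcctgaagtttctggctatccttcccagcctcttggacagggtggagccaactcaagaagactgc
Apoa5, chr9:46268358-46268657, plus strand: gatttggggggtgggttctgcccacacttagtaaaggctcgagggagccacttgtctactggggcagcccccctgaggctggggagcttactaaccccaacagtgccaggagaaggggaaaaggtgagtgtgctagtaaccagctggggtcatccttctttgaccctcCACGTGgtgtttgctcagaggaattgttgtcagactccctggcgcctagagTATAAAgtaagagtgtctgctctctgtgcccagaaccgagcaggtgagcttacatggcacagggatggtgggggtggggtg
Creb3l3, chr10:81092542-81092841, minus strand: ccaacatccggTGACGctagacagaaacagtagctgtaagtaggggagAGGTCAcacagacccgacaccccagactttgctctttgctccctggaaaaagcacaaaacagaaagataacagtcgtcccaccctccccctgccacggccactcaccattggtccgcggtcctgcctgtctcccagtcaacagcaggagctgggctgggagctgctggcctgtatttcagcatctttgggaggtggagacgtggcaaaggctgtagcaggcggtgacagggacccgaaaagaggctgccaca

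Apoa5 held CACGTG at base −82 and TATAAA at base −31, motifs found in 7.15% and 13.6% of all 32851 promoters. The second annotated start of Apoa5 lies 25 bases further on, and its window holds the same pair of motifs. Apoa4 held CAAAGTTCA at base −182, which 0.390% of promoters held. That motif was added to the search after the sequences had been read. The Creb3l3 window printed, at the start inside the gene, held TGACG at base −239 and AGGTCA at base −202, found in 20.8% and 16.3% of promoters. The window at the outer Creb3l3 start and that of Apoa1 held none of the 9 motifs. No motif was shared by 2 of the genes, and a match of letters does not show that a factor binds.

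Of 13 genes with a row within 250 kb of the cluster 4 were tested, and 0 of them passed the adjusted p (0 also at an unadjusted p under 0.05, edgeR). Sik3, a salt-inducible kinase gene that ends 4.386 kb before Apoa1, had a log2 fold change of −0.065 (SE 0.0761, adjusted p = 0.659). Zpr1, a zinc finger protein gene that starts 1.145 kb after Apoa5, was at −0.13 (SE 0.0869, adjusted p = 0.411). Bud13, 11.089 kb after Apoa5, was at −0.22 (SE 0.124, adjusted p = 0.316), and Pafah1b2, which encodes a subunit of a platelet-activating factor acetylhydrolase, was at 0.12 (SE 0.0860, adjusted p = 0.450 with edgeR). Within 500 kb 0 of 13 tested genes passed, with 1 at an unadjusted p under 0.05 (Gm48529, adjusted p = 0.137, edgeR, named after its values were seen).

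**Figure D4:**
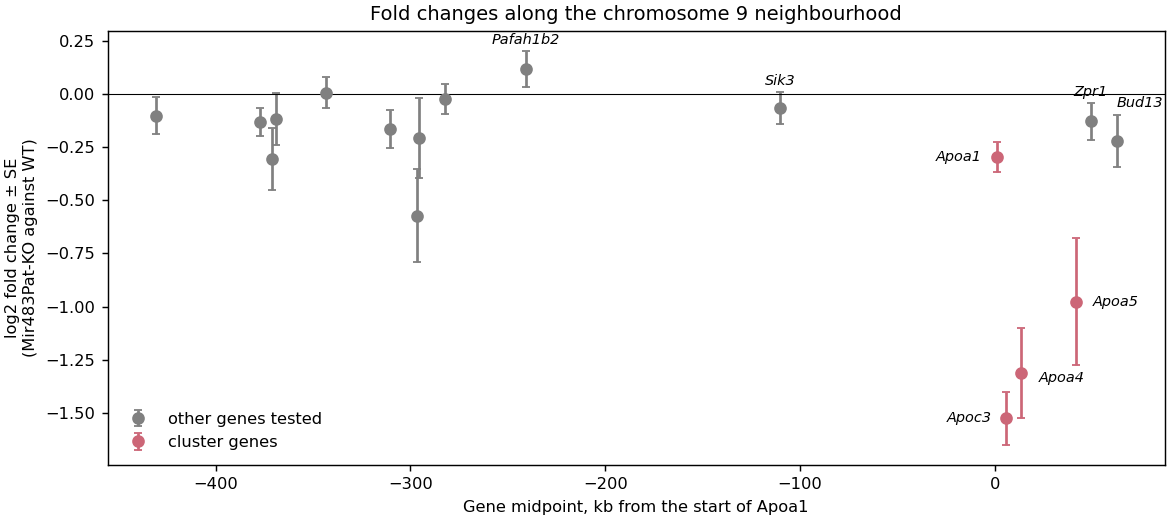
Log2 fold change ± SE of each tested gene within 500 kb of the cluster against the distance of its midpoint from the start of Apoa1 in kb. Apoc3, Apoa4, Apoa5 and Apoa1 lie at −1.53, −1.31, −0.98 and −0.30. The 4 nearest other genes lie between −0.22 and 0.12, and the lowest other gene, Gm48529, lies at −0.57.

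Genes around the cluster in function were counted in 4 lists, to be read beside the 2.76% of all tested genes that passed as lower and the 2.43% that passed as higher. The lists were chosen with earlier results of these data known, so the counts are a description and test nothing. Of 14 genes known to respond to CREB3L3, 12 could be tested, and 1 fell and 0 rose at the adjusted p (edgeR). It was Cpt1a, which brings fatty acids into mitochondria (129.8 ± 15.2 to 94.5 ± 9.55 CPM, log2 fold change −0.46, SE 0.0897, adjusted p = 0.0102). Apoc2, the activator of lipoprotein lipase, was below all WT libraries in 5 of 5 Mir483Pat-KO libraries but did not pass (−0.54, SE 0.179, adjusted p = 0.0869). Fgf21, a hormone that CREB3L3 and PPARA induce on fasting, had at most 7 counts in a library and was not tested. The median log2 fold change of the list was −0.19, beside 0.0042 over all tested genes.

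Of 13 genes that process CREB3L3, belong to its family or act beside it in stress of the endoplasmic reticulum, 12 were tested, 0 fell and 1 rose, with a median of −0.041. The gene that rose was Ern1, which encodes the stress sensor IRE1 of the endoplasmic reticulum (47.9 ± 3.10 to 57.1 ± 3.70 CPM, 0.25, SE 0.0694, adjusted p = 0.0448). Mbtps1, the Golgi protease that makes the first cut in CREB3L3, was at −0.092 (SE 0.0589, adjusted p = 0.379).

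Of 23 transcription factors known to act on the cluster, 5 fell and 0 rose, with a median of −0.20. Nr0b2, a nuclear receptor without a DNA-binding domain, had the largest decrease of them (−1.68, SE 0.421, adjusted p = 0.0310) at a very low level of 1.82 ± 0.998 CPM in WT. Nr2f6, an orphan receptor, fell by 0.46 on the log2 scale (SE 0.0792, adjusted p = 0.00518). The glucose-responsive factor Mlxipl (−0.45, SE 0.10, adjusted p = 0.0193) and the pioneer factor Foxa2 (−0.49, SE 0.112, adjusted p = 0.0201) fell by like amounts. The other gene that passed was Srebf1, a factor of lipid synthesis (−0.44, SE 0.118, adjusted p = 0.0408), which the naming rule did not cover. Hnf4a, the main hepatocyte regulator of the cluster, did not pass, although all 5 Mir483Pat-KO libraries were below all WT libraries (381.7 ± 26.0 to 324 ± 17.1 CPM, −0.24, SE 0.0679, adjusted p = 0.0540). Ppara, the receptor for fatty acids in hepatocytes, did not pass either (−0.20, adjusted p = 0.137).

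Among 22 partners of the apolipoproteins, 5 fell and 0 rose, with a median of −0.19. Those that fell were Lcat, the enzyme that esterifies cholesterol on high-density lipoprotein with apolipoprotein A-I as its activator (189 ± 11.8 to 149 ± 3.82 CPM, −0.34, adjusted p = 0.00710), the high-density lipoprotein receptor Scarb1 (−0.29, adjusted p = 0.0308), the remnant receptor Lrp1 (−0.43, adjusted p = 0.0310), Apoe (−0.33, adjusted p = 0.0350) and Mttp, which loads lipid onto apolipoprotein B (−0.28, adjusted p = 0.0441). Apob itself was at −0.055 (SE 0.103, adjusted p = 0.798). Lpl, the lipase that Apoc3 and Apoa5 products act on, was at −0.044 (adjusted p = 0.803).

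Of the 12 list genes that passed, Cpt1a, Nr2f6, Foxa2, Mlxipl and Lcat also passed with any 1 library left out (edgeR). The others lost the adjusted p without some of the libraries, in 6 of 10 cases each for Apoe, Lrp1 and Scarb1, in 7 of 10 each for Nr0b2 and Srebf1, in 8 of 10 for Mttp and in 9 of 10 for Ern1, the highest adjusted p being 0.129 (edgeR). With GC content and length offsets 5 of the 12 did not pass, with log2 fold changes of −0.26 for Nr2f6, −0.39 for Foxa2, −0.34 for Mlxipl, −0.32 for Srebf1 and −0.20 for Apoe, so that Nr2f6 and Apoe moved by over 1.5 times. In the lower range of identification numbers, described further on, none of the 12 did. The log2 fold changes there were further from 0 for Cpt1a (−0.54), Nr2f6 (−0.51), Lcat (−0.35) and Ern1 (0.29) and nearer to 0 for the other 8, by over 1.5 times for Mttp (−0.16), Srebf1 (−0.27) and Mlxipl (−0.29). With the range as a covariate Nr0b2 (adjusted p = 0.0622) and Mttp (0.0691) did not pass. Ppara (−0.27, adjusted p = 0.0363) and Hnf4a (−0.25, adjusted p = 0.0421) did (edgeR). Nr0b2 did not pass with limma-voom (adjusted p = 0.0683), Srebf1 with the robust fit (0.0508) or Ern1 without a low-count filter (0.0575). The adjusted p of Hnf4a ran from 0.00639 with DESeq2 to 0.336 in the lower range and 0.355 when scaled to hepatocyte markers. It was also under 0.05 with limma-voom (0.0464) and the robust fit (0.0492). The same held without WT replicate 1 (0.0461) or Mir483Pat-KO replicate 1 (0.0451, edgeR).

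**Figure D5:**
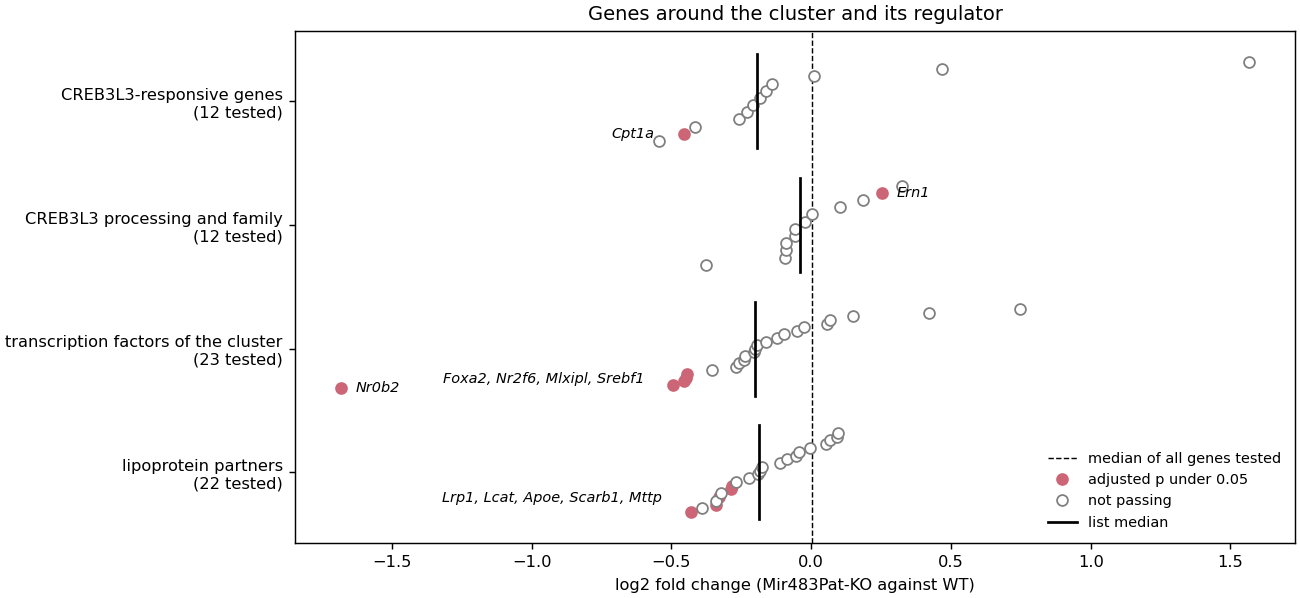
Log2 fold change of each tested gene of the 4 lists, with filled points for those at an adjusted p under 0.05 (named), open points for the rest, a solid bar at each list median and a dashed line at the median of all genes. The medians of 3 lists lie between −0.20 and −0.19, and that of CREB3L3 processing and family lies at −0.041.

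The summed level of marker genes was compared between the genotypes. The liver label held, since the 7 hepatocyte markers, led by Alb, Afp and Ttr, summed to 237499 to 264064 CPM (WT) and 221010 to 251472 CPM (Mir483Pat-KO) (two-sided exact permutation test, p = 0.0556). The 7 erythroid markers that were found summed to 15635 to 20212 CPM (WT) and 18327 to 26224 CPM (Mir483Pat-KO) (exact permutation test, p = 0.0238), and thus stood higher in the group in which the 5 genes stood lower. Within the lower range of identification numbers both Mir483Pat-KO sums lay inside the WT span, at 241277 to 251472 against 237499 to 259275 CPM for hepatocyte markers and at 18327 to 20006 against 15635 to 20212 CPM for erythroid markers. The lowest Mir483Pat-KO hepatocyte sum (221010 CPM) and the highest erythroid sum (26224 CPM) came from the upper range. The part of the range in these differences was not tested. In those libraries, of which 2 were Mir483Pat-KO, all 5 genes were lower in Mir483Pat-KO than in WT, and 1 of them passed the adjusted p (edgeR). The part of cell composition in the lower levels of the 5 genes was not tested. In bulk tissue, fewer cells of a type and less RNA per cell cannot be told apart. Scaling to the hepatocyte markers raised the log2 fold change of each gene by a similar amount, to −1.42 for Apoc3, −1.20 for Apoa4, −0.85 for Apoa5, −0.17 for Apoa1 and −0.18 for Creb3l3, and 2 of the 5 genes passed the adjusted p in place of 4. This scaling moved the median of all tested genes from 0.0042 to 0.13 and the list medians to −0.083 for CREB3L3-responsive genes, 0.081 for CREB3L3 processing and family, −0.075 for the transcription factors and −0.065 for the lipoprotein partners. Of the 12 list genes that had passed, Srebf1 (−0.33), Lrp1 (−0.31), Lcat (−0.22), Apoe (−0.20), Mttp (−0.17) and Scarb1 (−0.17) did not pass under it (edgeR). The last 4 moved by over 1.5 times, as did Hnf4a (−0.11) and Ppara (−0.075).

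Enterocytes also make Apoa4, Apoc3, Apoa1 and Creb3l3 mRNA. Of 8 enterocyte markers, Sis, Cdx1, Cdx2 and Alpi had 0 counts in all libraries, and the sum of the list was 3.0 to 4.51 CPM (WT) and 2.57 to 3.98 CPM (Mir483Pat-KO). The 5 exocrine pancreas markers summed to 5.42 to 85.6 CPM (WT) and 11.6 to 23.1 CPM (Mir483Pat-KO). The macrophage, endothelial, mesenchymal and bile duct lists, of 4 genes each, had overlapping ranges in both genotypes, and the part of other cell types in the differences was not tested.

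The identification numbers of the animals fell into a lower range (4 WT and 2 Mir483Pat-KO) and an upper range (1 WT and 3 Mir483Pat-KO), whose meaning the labels do not give. Within the lower range Apoc3 was at 50.4 to 63.3 CPM in WT and at 20.2 and 27.2 CPM in Mir483Pat-KO, and in the upper range at 59.0 CPM (WT) and 15.7 to 17.2 CPM (Mir483Pat-KO). Apoa4 showed the same order, at 4.36 to 8.35 against 2.94 and 3.98 CPM in the lower range and at 7.19 against 1.91 to 2.44 CPM in the upper. For Apoa5 the lower range held 24.9 to 48.6 CPM in WT against 5.32 and 15.3 CPM, whereas in the upper range the 1 WT library, at 24.2 CPM, lay inside the Mir483Pat-KO span of 11.5 to 29.4 CPM. Creb3l3 and Apoa1 were lower in Mir483Pat-KO within both ranges. The lower range alone gave log2 fold changes of −1.22 for Apoc3, −0.93 for Apoa4 and −1.70 for Apoa5.

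The exons of the 5 genes are rich in GC, at 56% to 57.6%, between the 83.6th and 90.1st percentile of the tested genes. Tested genes within 1 percentage point of each had a median log2 fold change between −0.11 and −0.079, below the median of all genes. With offsets that remove GC content and length trends, Apoc3 and Apoa4 passed the adjusted p, whereas Apoa1 (−0.22), Creb3l3 (−0.21) and Apoa5 (−0.90) did not.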

How the data were processed

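Liver RNA of 5 Mir483Pat-KO and 5 WT female fetuses was analysed as RNA-seq. The authors made polyadenylated libraries with TruSeq kits, aligned reads to GRCm38 with STAR and deposited raw counts per Ensembl gene. Totals were 10831350 to 14765880 counts per library. The 5 genes and all lists were chosen with earlier results of these data known.

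Counts were analysed with edgeR 4.0.16 in R 4.3.3: default filterByExpr, TMM scaling, and the quasi-likelihood F-test on all 10 libraries without covariates, with Benjamini-Hochberg adjustment over 14098 genes. Called genes had an adjusted p below 0.05 together with a change of more than 1.5-fold. Libraries varied with a common biological coefficient of 0.111. Log2 CPM used a prior count of 2. Levels per length used the union of annotated exons. P-values measure the spread between fetuses. No replicate pair of a group was near-identical (chi-square divided by its degrees of freedom was 4.9 or more in all 20 pairs). Marker sums were compared by exact permutation. Positions and 3′ UTRs came from GENCODE M21 (GRCm38), and microRNAs and promoters from RefSeq tables.

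The genes named besides the 5 were 8 listed by name (Hnf4a, Ppara, Mbtps1, Fgf21, Apoc2, Lpl, Apob and Mttp), up to 4 further genes per list with the smallest p among those that passed, tested neighbouring genes whose average log2 CPM reached 3, and the 3 genes most like Apoc3 and Creb3l3. Ahsp, of the 8 erythroid markers, was not used here. Items withheld for evaluation were left out of the lists and are not reported here. Alternatives were RLE scaling, DESeq2 1.42.0, limma-voom (limma 3.58.1), the robust fit, a filter of 10 counts in every library or none, the identification number range (as a covariate, or its lower part only), the replicate block, GC content and length offsets, scaling to hepatocyte markers, each library left out, and a window of 500 kb. The procedure was tested on simulated data.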

Additional observations from a re-analysis of the deposited data

Results flagged for a closer look

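Among the 5 genes described and the other named genes that were tested, 33 genes in all, 2 of 66 groups of 5 libraries held a value that stood apart by Dixon's criterion, where chance gives about 1 in 20. Mttp, the transfer protein gene, was at 239.961 CPM in WT replicate 3, whereas the other WT libraries lay between 209.199 and 210.972 CPM. The same library had the highest Apoc3 and Apoa5 values of the WT group. Without it the log2 fold change of Mttp was −0.26 (adjusted p = 0.0930, edgeR), which no longer passed. Sik3, a neighbour of the cluster, was at 43.9 CPM in Mir483Pat-KO replicate 4, below the 51.2 to 53.3 CPM of the other Mir483Pat-KO libraries.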

How the results depend on the processing

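All 5 genes stayed lower in Mir483Pat-KO under every alternative and with each library left out. Leaving out 1 library gave log2 fold changes of −1.69 to −1.47 for Apoc3, −1.5 to −1.21 for Apoa4, −1.32 to −0.76 for Apoa5, −0.34 to −0.26 for Apoa1 and −0.36 to −0.26 for Creb3l3. It gave 2 to 3 of them called and 2 to 4 passing the adjusted p (edgeR), with 2 passing when WT replicate 5 or Mir483Pat-KO replicate 4 was omitted. List genes that fell numbered 11 in all and 5 to 14 with a library left out (7 without WT replicate 3, 6 without WT replicate 4 or 5, and 5 without Mir483Pat-KO replicate 2 or 4), and those that rose 0 to 2, with 2 without WT replicate 2 and 0 without any of the other libraries. Over all genes 80 to 171 were called lower and 17 to 66 higher, and 192 to 475 and 87 to 389 passed, against 123, 50, 389 and 342 with all libraries.

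The lower identification number range alone, with 2 Mir483Pat-KO libraries, gave −1.22, −0.93 and −1.70 for Apoc3, Apoa4 and Apoa5, 1 gene called and 1 passing, 0 list genes that fell and 0 that rose, and over all genes 19 called lower, 2 called higher, 20 passing lower and 3 passing higher. Scaled to hepatocyte markers, Apoa1 was at −0.17 and Creb3l3 at −0.18, with 2 of the 5 genes passing, and 5 list genes fell and 3 rose, an alternative applied to the lists after the data were seen. GC content and length offsets gave 2 passing and 29 genes called higher. Without a low-count filter 18 list genes fell, 3 rose, 222 genes were called lower and 99 higher, and 625 and 633 passed. The replicate block gave 18 list genes that fell, with 596 and 742 genes passing. With the block, with limma-voom and without a low-count filter alike, 3 of the 5 genes were called and 5 passed. Same-numbered libraries deviated together at a mean correlation of 0.0871 across genes (−0.0496 to 0.261), against −0.0217 for other pairs, so they were not treated as paired. The range as a covariate left 107 genes called higher and 646 passing as higher, and DESeq2 passed 609 and 551. The direction turned for Mbtps1 (0.029 scaled to hepatocyte markers), Lpl (0.073 with that scaling, 0.022 with the covariate, 0.014 in the lower range, −0.088 to 0.010 with a library left out and above 0 without WT replicate 2) and Apob (0.058, 0.056 and 0.050 likewise, −0.14 to 0.00051 and above 0 without WT replicate 2). The causes were not tested. Apoa4, with 27 to 102 counts per library, is the one of the 5 genes whose precision depth limits most.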
